A study of Mus musculus with 8 samples.

Results

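The 10 genes described here, Nanog, Klf4, Klf2, Klf5, Tbx3, Esrrb, Tfcp2l1, Zfp42, Prdm14 and Gbx2, encode transcription factors of naive pluripotency. They were chosen by name, as factors of this state, with earlier results of these data known. Shares of all genes given beside them are therefore a description and not a test. The factors were found by gene symbol and Ensembl identifier among the 43346 genes counted in each library. All 10 passed the filter on low counts that left 18055 genes for testing. The data are total RNA-seq counts from mouse embryonic stem cells in 4 groups, with 2 libraries each. The TRIM71 knockout (TRIM71-/-) has lost TRIM71, a protein of embryonic and stem cells that binds RNA hairpins. The Mbnl1 3'UTR mutant carries, on both alleles, changed sequence in the untranslated end of Mbnl1, whose protein regulates splicing. In the Mbnl1 overexpression line, a construct of MBNL1 joined by T2A, a self-cleaving peptide, to a puromycin selection marker was stably integrated. The wild type was their parental line. All 4 groups, wild type included, had the background (129xC57BL/6) and carried Rosa26Cre-ERT2/BirA-V5, that is, a tamoxifen-inducible recombinase and a tagged biotinylating enzyme. The growth protocol names gelatin, serum and LIF and no feeder cells. The labels name neither the promoter of the transgene nor whether a line was 1 clone. Nor do they say that libraries of a group came from separate cultures, so p-values measure the spread between these libraries, which may be technical. Genotype and differences between clones cannot be told apart. By its title, the series concerns splicing that TRIM71 controls by keeping Mbnl1 low. The comparisons below ask what the naive factors did in each line.

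Naive pluripotency is the state of the epiblast before implantation, and mouse embryonic stem cells keep it in culture with the cytokine LIF. LIF signals through STAT3, which raises Klf4, Tfcp2l1 and Gbx2, while Tbx3 is known to be fed by PI3 kinase signalling, and these factors sustain each other together with Nanog, Esrrb, Klf2 and Klf5. In serum, FGF and ERK signalling push cells towards the formative state, and single cells differ in their levels of Nanog, Zfp42, Esrrb and other members.

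The libraries held 75056306 to 86508533 counts, and 3 counts corresponded to 0.0335 to 0.0398 CPM (each count as a share of its library, scaled by TMM). Trim71 had 101 and 105 CPM in the knockout libraries, against 629.9 and 628 CPM in wild type. Mbnl1 had 48.8 and 50.9 CPM in the knockout, 28.6 and 27.4 CPM in the mutant, 193 and 195 CPM in overexpression and 25.9 and 26.1 CPM in wild type. The mutant, named for this gene, did not pass the test for Mbnl1 mRNA (log2 change 0.11, adjusted p = 0.0935). All 8 embryonic stem cell markers, 3 of which are members described here, were well above the floor in every library. Their summed level was 5024 to 5063 CPM in the knockout, 4703 to 4731 CPM in the mutant, 4827 to 4922 CPM in overexpression and 4154 to 4219 CPM in wild type. The share of counts at loci resembling ribosomal RNA was 3.0 to 5.57%, highest in wild-type replicate 1.

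In the TRIM71 knockout, 8 of the 10 factors rose and none fell. Nanog (1.92-fold), Klf5 (1.79-fold), Prdm14 (1.76-fold) and Klf4 (1.72-fold) rose most, Esrrb, Zfp42, Gbx2 and Tbx3 rose 1.13-fold to 1.25-fold, and Klf2 and Tfcp2l1 did not pass. A change was called at an adjusted p under 0.05 in edgeR's quasi-likelihood test, with p-values adjusted over all 18055 genes. By that rule 24.1% of all genes rose and 20.7% fell in the knockout. The 4 factors that rose at least 1.5-fold stand beside 8.06% of all genes. The median log2 change of the 10 factors was 0.32, against -0.01 for all genes.

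In the Mbnl1 3'UTR mutant, 9 of the 10 factors rose and none fell, beside 8.02% of all genes that rose and 7.5% that fell. Klf5 (1.65-fold), Gbx2 (1.49-fold), Tbx3 (1.46-fold) and Klf4 (1.44-fold) rose most. Of these Klf5 alone passed 1.5-fold, as 0.77% of all genes did in the upward direction. Klf2 did not pass, and the median log2 change of the 10 factors was 0.23, against -0.01 for all genes.

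In the Mbnl1 overexpression line all 10 factors passed, 9 of them higher and Klf2 lower, beside 27.7% of all genes that rose and 27.1% that fell. Klf4 (2.30-fold) and Tbx3 (2.25-fold) rose most, and Klf2 was 2.02-fold lower. Those 2 rises and that fall are the changes of at least 1.5-fold, which 11.3% of all genes showed upward and 9.83% downward. The median log2 change of the factors was 0.22, against -0.01 for all genes. All 10 factors averaged more than 20 CPM, and a small change is called more easily in abundant genes. Of the 6990 genes at that level, a limit chosen after the data were seen, 28.4% rose and 26.9% fell in the knockout, 14.9% rose and 6.44% fell in the mutant, and 29.6% rose and 36.6% fell in overexpression. The 3 comparisons share the wild-type libraries, so that a low draw of a gene in those libraries raises its change in each of them.

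**Figure D1:**
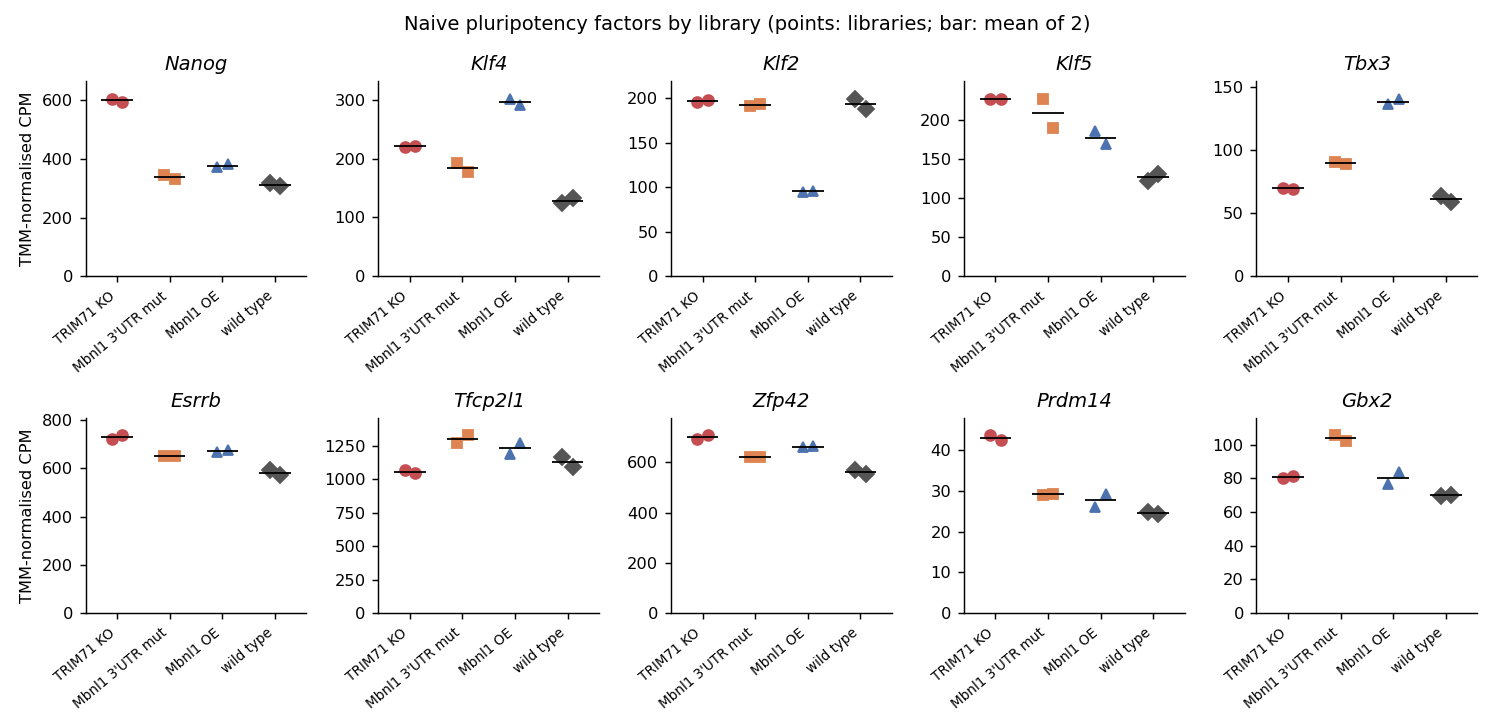
Level of each of the 10 factors in every library, in TMM-normalised CPM on linear axes that start at 0; points are the 2 libraries of a group and bars their mean. Nanog and Prdm14 are highest in the TRIM71 knockout, Klf4 and Tbx3 in Mbnl1 overexpression and Gbx2 in the Mbnl1 3'UTR mutant, and Klf2 is near 96 CPM in overexpression, against 188 to 199.6 CPM elsewhere.

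**Figure D2:**
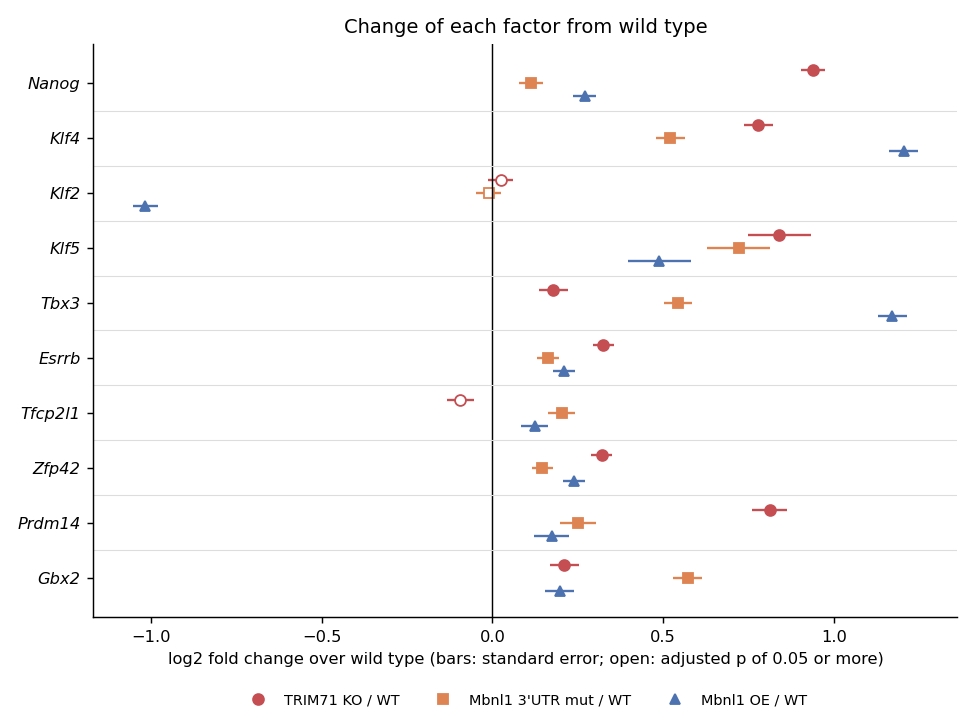
Log2 fold change over wild type of each factor in the TRIM71 knockout, the Mbnl1 3'UTR mutant and Mbnl1 overexpression, with the standard error as a bar and open symbols where the adjusted p was 0.05 or more. Klf2 in overexpression (-1.02) is the filled symbol left of 0, and the open symbols are Klf2 and Tfcp2l1 in the knockout and Klf2 in the mutant.

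Nanog, the homeobox factor that holds cells in self-renewal, had 604 and 594 CPM in the knockout libraries, 344 and 332 CPM in the mutant, 373 and 381 CPM in overexpression, and 318 and 307 CPM in wild type. Knockout libraries stood far above all others, and every altered library lay above both of wild type. Nanog rose by a log2 change of 0.94 in the knockout (SE 0.034, adjusted p = 2.82e-11) and 0.27 in overexpression (adjusted p = 7.07e-06). In bulk samples such as these, more cells of a type and more RNA per cell cannot be told apart. The rise in the mutant was small, with a log2 change of 0.11 (adjusted p = 0.0348). It no longer passed without wild-type replicate 2 or without mutant replicate 1 (0.09 in both, adjusted p = 0.192 and 0.139). The call was also lost, at log2 changes of 0.11 to 0.12, without either knockout library (adjusted p = 0.0694 and 0.077) or overexpression replicate 2 (adjusted p = 0.0544), with the replicate number as a block (adjusted p = 0.0521) and with the 4 libraries compared fitted alone (adjusted p = 0.120).

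The gene (ENSMUSG00000012396.8) lies on the plus strand of mm10 chromosome 6, from 122707489 to 122714633, with 2242 bases of exon. Its pseudogenes Nanog-ps1 and Nanog-ps2 had 0 to 3 counts in each library. Promoter windows, reaching 250 bases before to 50 after a start, were taken from RefSeq (GRCm38.p6). Among 32851 such windows, 9 belong to 7 of the factors: Nanog and Esrrb with 2 each, and Klf4, Klf2, Tfcp2l1, Zfp42 and Gbx2. A fixed form of the composite OCT4-SOX2 element, CATTGT followed by any base and then ATGCNAA, read on both strands, was found in 2 windows (0.00609% of all). These were the 2 overlapping windows of Nanog, so that both hold the same copy. It lies upstream of the annotated start at chr6:122707407-122707434 and is shown because no other gene's window holds these letters. It is written on the strand of the gene, with the match in capitals.
Nanog promoter: agcttctTTTGCATTACAATGtccatgg
The match is a description of these letters and says nothing of binding in these cells.

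Prdm14, a PR-domain factor that represses FGF receptor signalling and de novo DNA methylation in the naive state, followed a similar order at a lower level. It had 43.6 and 42.5 CPM in the knockout, 29.1 and 29.4 CPM in the mutant, 26.2 and 29.2 CPM in overexpression and 24.8 and 24.3 CPM in wild type. The knockout libraries lay above all others, while those of the mutant and overexpression overlapped. It rose by a log2 change of 0.81 in the knockout (SE 0.051, adjusted p = 7.89e-09) and 0.25 in the mutant (adjusted p = 0.00391). The change in overexpression (log2 0.17, adjusted p = 0.0107) turned on 1 library. It was 0.26 without overexpression replicate 1 and 0.09, no longer passing (adjusted p = 0.186), without replicate 2, and it was also lost without wild-type replicate 2 (adjusted p = 0.0552). Prdm14 (ENSMUSG00000042414.7) lies on the minus strand of chromosome 1, from 13113457 to 13127163.

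The Kruppel-like factors Klf4, Klf2 and Klf5 bind related sites and can stand in for each other in stem cells, and their transcripts moved in different ways. Klf4, which LIF and STAT3 raise, had 220.4 and 221 CPM in the knockout, 192 and 177 CPM in the mutant, 301 and 291 CPM in overexpression and 125 and 132 CPM in wild type. No group overlapped another. It rose by log2 changes of 0.78 in the knockout (SE 0.043, adjusted p = 1.80e-09), 0.52 in the mutant (SE 0.043, adjusted p = 8.61e-07) and 1.20 in overexpression (SE 0.043, adjusted p = 7.71e-12). Klf4 (ENSMUSG00000003032.8) lies on the minus strand of chromosome 4, from 55527143 to 55532466.

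Klf2, whose protein ERK signalling destabilises, had 196 and 198 CPM in the knockout, 191 and 193 CPM in the mutant, 95.2 and 96.3 CPM in overexpression and 199.6 and 188 CPM in wild type. Both overexpression libraries lay far below the other 6, and the knockout and mutant libraries lay within the range of wild type. Klf2 fell by 1.02 on the log2 scale in overexpression (SE 0.037, adjusted p = 8.74e-12). Its log2 changes of 0.02 in the knockout (SE 0.036, adjusted p = 0.624) and -0.01 in the mutant (SE 0.036, adjusted p = 0.885) did not pass. Klf2 (ENSMUSG00000055148.7) lies on the plus strand of chromosome 8, from 72319033 to 72321656.

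Klf5, also expressed in the trophectoderm lineage, had 226 and 227 CPM in the knockout, 227 and 190.0 CPM in the mutant, 185 and 169.5 CPM in overexpression and 122 and 131 CPM in wild type. All altered libraries lay above wild type, and the mutant libraries, which differed 1.20-fold, spread more than the libraries of any group did for another of the 10 factors. The log2 changes were 0.84 in the knockout (adjusted p = 5.13e-04), 0.72 in the mutant (adjusted p = 0.00368) and 0.49 in overexpression (adjusted p = 0.0046). Their standard errors of 0.092 were the widest of the 10. Klf5 (ENSMUSG00000005148.7) lies on the plus strand of chromosome 14, from 99298691 to 99315036.

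Divided by exon length, the 3 Kruppel-like factors can be added. Their sum was 223 ± 1.05 CPM per kb in the knockout, 205 ± 7.77 in the mutant, 183 ± 4.05 in overexpression and 171 ± 1.49 CPM per kb in wild type (mean ± SD, n = 2 each). The groups did not overlap in this sum, and wild type was lowest. Klf2 made up 47.9 ± 0.162% of it in the knockout, 50.9 ± 2.35% in the mutant, 28.3 ± 0.851% in overexpression and 61.2 ± 2.05% in wild type. Klf4 made up 32.5 ± 0.0847% in the knockout, 29.6 ± 0.625% in the mutant, 53.1 ± 0.0931% in overexpression and 24.6 ± 1.16% in wild type. Klf5 held 18.6 to 19.6% in the altered lines and 14.2 ± 0.887% in wild type. In overexpression Klf4 was therefore the most abundant of the 3 per length, and in the other groups Klf2 was. The log2 ratio of Klf4 to Klf2 was -0.56 ± 0.01 in the knockout, -0.78 ± 0.10 in the mutant, 0.91 ± 0.05 in overexpression and -1.31 ± 0.12 in wild type. With 2 libraries a group, no exact two-sided permutation p can be under 0.333, so the sum and the shares are described and not tested.

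**Figure D3:**
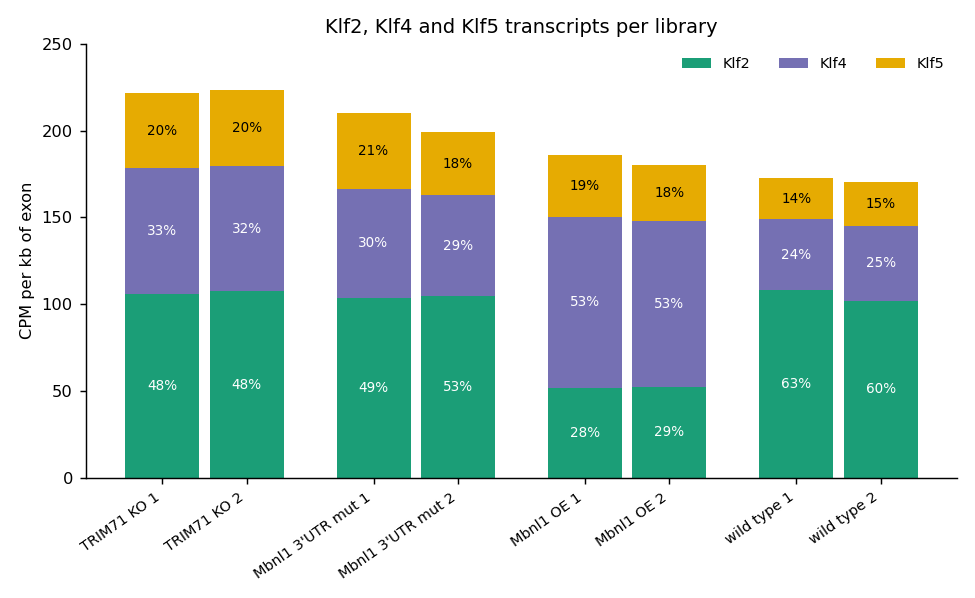
Klf2, Klf4 and Klf5 transcripts in each library, stacked, in CPM per kb of exon on an axis that starts at 0, with the share of each factor written in its segment. The stacks are tallest in the TRIM71 knockout and lowest in wild type, and the Klf4 segment is the largest in both Mbnl1 overexpression libraries, against Klf2 in the other 6.

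Tbx3, a T-box factor that keeps cells naive downstream of PI3 kinase, had 69.8 and 69.5 CPM in the knockout, 90.7 and 88.7 CPM in the mutant, 136 and 141 CPM in overexpression and 64.1 and 59.0 CPM in wild type. No group overlapped another, and overexpression was highest. The log2 changes were 0.18 in the knockout (SE 0.042, adjusted p = 0.00278), 0.54 in the mutant (SE 0.042, adjusted p = 4.82e-07) and 1.17 in overexpression (SE 0.042, adjusted p = 7.82e-12). Tbx3 (ENSMUSG00000018604.14) lies on the plus strand of chromosome 5, from 119670669 to 119684724. It shares 115 bases of exon with the antisense gene Tbx3os1, which averaged 0.202 CPM. No label names the strand setting of the counting, so it is not known whether reads of the overlap were counted.

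Gbx2, a homeobox target of STAT3, was highest in the mutant. It had 80.0 and 81.4 CPM in the knockout, 105 and 102 CPM in the mutant, 76.6 and 83.5 CPM in overexpression and 69.6 and 70.0 CPM in wild type. Knockout and overexpression overlapped, and both wild-type libraries lay below all others. It rose by log2 changes of 0.21 in the knockout (adjusted p = 8.86e-04), 0.57 in the mutant (SE 0.042, adjusted p = 3.28e-07) and 0.20 in overexpression (adjusted p = 0.00104). Gbx2 (ENSMUSG00000034486.8) lies on the minus strand of chromosome 1, from 89927956 to 89931179. The noncoding gene D130058E05Rik covers 946 of its 2177 exon bases on the opposite strand, and its own log2 changes were 0.30, 0.27 and 0.31 at a mean of 5.84 CPM.

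Esrrb, Zfp42 and Tfcp2l1 had more counts than any other member, and none of their log2 changes from wild type was larger than 0.33. Esrrb, an orphan nuclear receptor that Nanog activates, had 724 and 737 CPM in the knockout, 652 and 653 CPM in the mutant, 669.7 and 677 CPM in overexpression and 592 and 573 CPM in wild type. Zfp42, the Rex1 gene and a classical marker of the naive state, had 692 and 707 CPM in the knockout, 620.1 and 621 CPM in the mutant, 659 and 664 CPM in overexpression and 569 and 552 CPM in wild type. In both genes no group overlapped another, and the order was knockout, overexpression, mutant, wild type. Esrrb rose by log2 changes of 0.33, 0.16 and 0.21 in the knockout, the mutant and overexpression, and Zfp42 by 0.32, 0.15 and 0.24, with standard errors of 0.032 and adjusted p-values of 8.69e-07 to 0.00511. Esrrb (ENSMUSG00000021255.13) lies on the plus strand of chromosome 12, from 86361117 to 86521628, and Zfp42 (ENSMUSG00000051176.5) on the minus strand of chromosome 8, from 43295063 to 43306980.

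The Zfp42 window held a fixed form of the KLF motif, CCACACCC, which 3.56% of all windows hold on either strand and which 1 of the 9 member windows holds. The site is shown as the only match to this motif in the member windows, and it says nothing of binding in these cells. It lies at chr8:43307067-43307094 and is written on the gene's strand, with the match in capitals.
Zfp42 promoter: acatccccgcCCACACCCaccttgagcg
A fixed ESRRB motif, TCAAGGTCA (0.423% of windows), and a fixed STAT motif, TTCCNGGAA (1.15% of windows), matched none of the 9 member windows, which says only that these letters are not in them.

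Tfcp2l1, a CP2-family factor that STAT3 switches on, had 1069 and 1049 CPM in the knockout, 1273 and 1329 CPM in the mutant, 1192 and 1272 CPM in overexpression and 1166 and 1094 CPM in wild type. The knockout was lowest, just below wild type, and overexpression and the mutant lay above wild type. It rose by a log2 change of 0.20 in the mutant (SE 0.040, adjusted p = 0.00258). The rise in overexpression was 0.12 (adjusted p = 0.0159), and it was lost without wild-type replicate 2 (0.08, adjusted p = 0.167) or without overexpression replicate 2 (0.08, adjusted p = 0.201). In the knockout the log2 change of -0.09 did not pass (SE 0.040, adjusted p = 0.071). It passed as a fall without wild-type replicate 2 (-0.14, adjusted p = 0.028) and without either mutant library (adjusted p = 0.0435 and 0.042). It also passed among genes of at least 1 CPM (adjusted p = 0.0445) and with the 4 libraries compared fitted alone (adjusted p = 0.0241). Tfcp2l1 (ENSMUSG00000026380.10) lies on the plus strand of chromosome 1, from 118627945 to 118685168, and shares 130 of its 9438 exon bases with the small nuclear RNA gene Gm23497 on the same strand.

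The altered lines were also compared with each other. Between the TRIM71 knockout and the Mbnl1 3'UTR mutant, 5 factors were higher and 3 lower in the knockout, beside 24.4% of all genes that were higher and 21.1% that were lower. Nanog (log2 0.83, adjusted p = 7.55e-11), Prdm14 (0.56), Klf4 (0.26), Zfp42 (0.17) and Esrrb (0.16) were higher in the knockout. Tbx3 (-0.37, adjusted p = 4.04e-06), Gbx2 (-0.36) and Tfcp2l1 (-0.30) were lower. Klf2 did not pass at a log2 difference of 0.04 (SE 0.036, adjusted p = 0.463). Klf5 did not pass at 0.12 (SE 0.091, adjusted p = 0.350), and it passed at 0.25 without mutant replicate 1 (adjusted p = 0.00155).

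Between overexpression and the mutant, 4 factors were higher and 2 lower in overexpression, beside 26.8% and 25.2% of all genes. Klf4 (log2 0.68, adjusted p = 4.48e-09), Tbx3 (0.63, adjusted p = 8.44e-09), Nanog (0.16, adjusted p = 0.00118) and Zfp42 (0.09, adjusted p = 0.0231) were higher in overexpression. Klf2 (-1.01, adjusted p = 1.98e-11) and Gbx2 (-0.38, adjusted p = 2.65e-06) were lower. The Zfp42 call was lost without either knockout library (0.09 in both, adjusted p = 0.0587 and 0.0537), without overexpression replicate 1 (0.10, adjusted p = 0.0562) or replicate 2 (0.09, adjusted p = 0.112), and with the 4 libraries compared fitted alone (0.09, adjusted p = 0.0608). Klf5 (-0.23, adjusted p = 0.0772), Tfcp2l1 (-0.08), Prdm14 (-0.08) and Esrrb (0.05) did not pass. Of these Klf5 passed without mutant replicate 2 (-0.36, adjusted p = 5.47e-05), Prdm14 without overexpression replicate 2 (-0.16, adjusted p = 0.0347), and Tfcp2l1 without mutant replicate 1 (-0.11, adjusted p = 0.0497) or overexpression replicate 2 (-0.13, adjusted p = 0.0493).

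Between the knockout and overexpression, 6 factors were higher and 3 lower in the knockout, beside 27.5% and 27.3% of all genes. Klf2 (log2 1.04, adjusted p = 6.50e-12), Nanog (0.67, adjusted p = 3.24e-10) and Prdm14 (0.64, adjusted p = 4.37e-08) were higher in the knockout. Klf5 (0.35, adjusted p = 0.0179), Esrrb (0.12, adjusted p = 0.00576) and Zfp42 (0.08, adjusted p = 0.0434) were also higher. Tbx3 (-0.99, adjusted p = 3.61e-11), Klf4 (-0.43, adjusted p = 5.22e-07) and Tfcp2l1 (-0.22, adjusted p = 2.82e-04) were lower in the knockout. Gbx2 did not pass at 0.01 (SE 0.042, adjusted p = 0.824). For Klf5, Esrrb and Zfp42 the call, though not the direction, was lost when some libraries were left out. Klf5 missed the threshold without knockout replicate 1 (log2 0.36, adjusted p = 0.059), knockout replicate 2 (0.35, adjusted p = 0.0606) or overexpression replicate 2 (0.29, adjusted p = 0.0652). Esrrb missed it without knockout replicate 2 or overexpression replicate 1 (0.10 in both, adjusted p = 0.0799 and 0.0557). Zfp42 missed it without any 1 of the 4 libraries compared (0.07 to 0.0995, adjusted p = 0.0923 to 0.269). Without TMM scaling, all 3 missed the threshold (adjusted p = 0.0502, 0.069 and 0.393 for Klf5, Esrrb and Zfp42). Without a filter on low counts Klf5 and Zfp42 missed it as well (adjusted p = 0.0502 and 0.0537), and Zfp42 also with ribosomal RNA-like loci left out of the scaling (adjusted p = 0.0698).

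**Figure D4:**
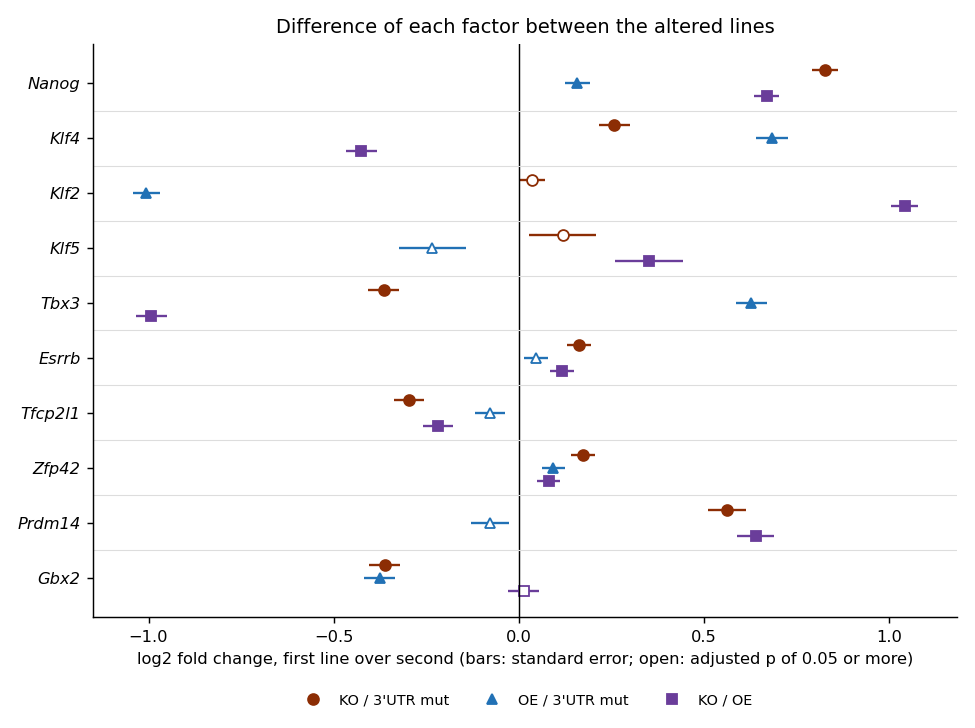
Log2 fold change of each factor between the altered lines, the first line named over the second, with the standard error as a bar and open symbols where the adjusted p was 0.05 or more. Nanog and Prdm14 are on the knockout side against both other lines, Klf2 is at -1.01 for overexpression over the mutant and at 1.04 for the knockout over overexpression, and Tbx3 is at -0.99 for the knockout over overexpression.

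Levels of different genes were set in order per kb of exon. In wild type, Zfp42 was highest at 298 CPM per kb, followed by Nanog (139), Tfcp2l1 (120), Klf2 (105), Esrrb (96.4), Klf4 (42.2), Gbx2 (32.1), Klf5 (24.3), Prdm14 (9.57) and Tbx3 (9.29). Prdm14 and Tbx3 overlapped there, and so did Gbx2 and Klf5 in overexpression. The other 34 of 36 pairs of neighbours in the 4 orders did not overlap. Overlap covers only the spread of libraries, and the order also rests on the exon lengths used, which another annotation could change. Zfp42 and Nanog held the first and second place in every group. In the knockout, Nanog at 267 CPM per kb came closer to Zfp42 at 372, Esrrb (121) stood above Tfcp2l1 (112), and Klf5 (43.5) above Gbx2 (37.1). In the mutant, Esrrb (108) stood above Klf2 (104), Gbx2 (47.7) above Klf5 (40.1), and Tbx3 (13.5) above Prdm14 (11.4). In overexpression, Klf4 at 97.2 CPM per kb stood above Klf2 at 51.8, and Tbx3 at 20.9 above Prdm14 at 10.8. The orders were the same without TMM scaling in all 4 groups.

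**Figure D5:**
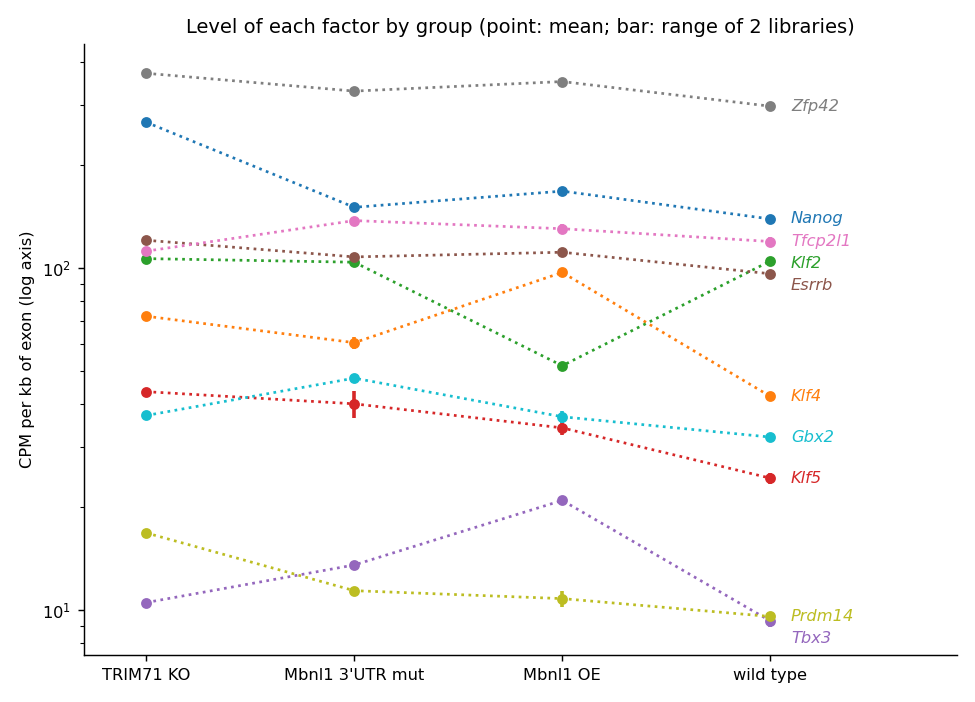
Level of each factor per group in CPM per kb of exon on a log axis, as the mean of 2 libraries with their range as a bar; dotted lines join the same gene across groups. Zfp42 is highest and Nanog second in each group, and the lines of Klf4 and Klf2 cross so that Klf4 lies above Klf2 in Mbnl1 overexpression.

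The pattern of each factor over the 8 libraries was described by its log2 CPM centred on its own wild-type mean, and 2 patterns were compared by their root mean square difference in log2 units. Among the 10 factors, Esrrb and Zfp42 were most alike (0.0178), followed by Nanog and Prdm14 (0.112). Klf4 and Klf2 were least alike (1.20). The candidates were the 11848 genes with at least 1 CPM on average and a symbol other than a Gm number or Rik name. From these the 3 nearest in pattern were named for each factor that changed at least 1.5-fold in a comparison with wild type. Nearest to Nanog were C2cd2 (0.0412), Adamts4 and Per2, and nearest to Prdm14 were Herpud1 (0.0671), Cxadr and Sgk1. Nearest to Klf4 were C2cd2l (0.0549), Prelid2 and Itgb3, and nearest to Klf2 were Elf1 (0.0641), Bnc2 and Usp54. Nearest to Tbx3 were Rap1gap2 (0.0692), Tcf15 and Vash1. Klf5 had no candidate as close, the nearest being Mpzl2 (0.110), Ly75 and Gpx2. With so many candidates over 4 groups, close patterns are found for many genes, and no function is read from them.

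Genes beside the factors were read to see how far along the chromosome a change reached. Of the 20 nearest tested genes, 1 on each side of each factor, the 8 within 20 kb are given, a distance chosen after their values were seen. Of these 8, 4 rose and 0 fell in the knockout, beside 24.1% of all genes that rose and 20.7% that fell. In the mutant 2 rose and 0 fell, beside 8.02% and 7.5% of all genes. In overexpression 4 rose and 1 fell, beside 27.7% and 27.1%. Slc2a3, a glucose transporter gene 13.2 kb beyond Nanog, rose by a log2 change of 0.37 in the knockout (adjusted p = 4.42e-07), against 0.94 for Nanog, and by 0.13 in the mutant (adjusted p = 0.0176). In overexpression it did not pass at 0.03 (adjusted p = 0.469). Gm10224, nearer to Nanog at 8.46 kb on the other side, did not pass in the knockout (-0.08, adjusted p = 0.394) or the mutant (-0.13, adjusted p = 0.247), and fell by 0.25 in overexpression (adjusted p = 0.00678), where Nanog rose. Nanog thus had a neighbour that rose with it in the knockout and another that did not pass.

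Ncoa2, 11.9 kb from Prdm14, rose by 0.28 in the knockout (adjusted p = 3.87e-04) and 0.16 in overexpression (adjusted p = 0.0136). Beside Klf2, Gm10282 at 13.8 kb rose by 1.05 in the knockout (adjusted p = 4.78e-06), where Klf2 did not pass, and did not pass in overexpression (-0.07, adjusted p = 0.690), where Klf2 fell by 1.02. Eps15l1, 19.3 kb from Klf2, rose by 0.10 in overexpression (adjusted p = 0.0425) and 0.13 in the mutant (adjusted p = 0.0454). Tbx3os2, 0.371 kb from Tbx3 and at a mean of 0.355 CPM, rose by 1.10 in overexpression (adjusted p = 0.0116), beside 1.17 for Tbx3. Tbx3os1, which overlaps Tbx3, passed in none of the 3. D130058E05Rik, which overlaps Gbx2, passed in the knockout (adjusted p = 0.0322) and in overexpression (adjusted p = 0.0188). As with Tbx3os1, it is not known whether reads of the overlap were counted. The medians of all genes on the chromosomes of the factors lay between -0.11 and 0.02 in the 3 comparisons with wild type.

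Genes of related pathways were read from lists, and up to 3 called members of each are named, from those with the largest change and at least 1 CPM. Of 19 tested other genes linked to naive pluripotency, 11 rose and 4 fell in the knockout, with a median log2 change of 0.29, against -0.01 for all genes. Manba, a lysosomal mannosidase, rose 1.69-fold in the knockout, and Tcl1, an AKT coactivator, was 1.45-fold lower. In the mutant 5 rose and 4 fell, with rises of Zfp57 (1.36-fold), Dppa5a (1.35-fold) and Jam2 (1.29-fold). In overexpression 6 rose and 9 fell, with a median of -0.14. Mybl2 (1.75-fold) and Jam2 (1.70-fold) rose there, and Fbxo15 was 1.83-fold lower.

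Of 19 tested genes of formative pluripotency, 2 rose and 14 fell in the knockout (median log2 change -0.89), 3 rose and 10 fell in the mutant (-0.38), and 2 rose and 15 fell in overexpression (-0.75). These counts stand beside 24.1%, 8.02% and 27.7% of all genes that rose and 20.7%, 7.5% and 27.1% that fell. Pim2 (2.43-fold), the POU factor Pou3f1 (2.35-fold) and N-cadherin, Cdh2 (2.26-fold), were lower in the knockout. In the mutant Pim2 was 1.99-fold, Zic2 1.67-fold and Zic5 1.65-fold lower. In overexpression the zinc finger gene Zic2 was 7.17-fold lower, at 0.725 and 0.679 CPM, against 4.65 and 5.45 CPM in wild type. Cdh2 was 5.55-fold and Grhl2, a factor of epithelial enhancers, 3.08-fold lower there.

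Of 20 general pluripotency genes, 5 rose and 9 fell in the knockout, 4 rose and 3 fell in the mutant, and 3 rose and 9 fell in overexpression, with medians of 0.02, 0.04 and -0.07. The shares of all genes were 24.1%, 8.02% and 27.7% for rises and 20.7%, 7.5% and 27.1% for falls. Sall1 rose 1.75-fold in the knockout, where Lin28a, which blocks let-7 maturation, was 1.47-fold lower and Dppa2 1.40-fold lower. Mycn was 1.31-fold lower in the mutant and 2.21-fold lower in overexpression, where Epcam (1.67-fold) and Dppa4 (1.49-fold) were lower as well. In the mutant Utf1 rose 1.16-fold and Phc1 was 1.12-fold lower.

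Of 21 genes of LIF and STAT3 signalling, 12 rose and 3 fell in the knockout, 8 rose and 1 fell in the mutant, and 11 rose and 4 fell in overexpression. The medians were 0.15, 0.12 and 0.12. Beside these counts, 24.1%, 8.02% and 27.7% of all genes rose and 20.7%, 7.5% and 27.1% fell. Stat5a rose 3.08-fold and Stat5b 2.14-fold in the knockout, where the oncostatin M receptor Osmr was 2.40-fold lower. The LIF receptor Lifr rose to 161 and 158 CPM in the mutant, against 114 and 115 CPM in wild type (1.39-fold), and the feedback inhibitor Socs3 rose 1.28-fold. The kinase gene Pim1 was 1.29-fold lower in the mutant and fell by 1.32 on the log2 scale in overexpression, where Stat5b rose 2.43-fold and Stat5a 2.33-fold.

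Of 21 genes linked to exit from the naive state, whichever way they act on it, 7 rose and 7 fell in the knockout. In the mutant 7 rose and 1 fell, and in overexpression 7 rose and 10 fell. For this list and the next, the shares of all genes that rose were 24.1%, 8.02% and 27.7% in the 3 lines. Those that fell were 20.7%, 7.5% and 27.1%. Axin2, a target and inhibitor of Wnt signalling, was 1.54-fold lower in the knockout and rose 1.64-fold in the mutant and 1.58-fold in overexpression. Etv5 and Ncor1 rose 1.20-fold and 1.19-fold in the knockout. Rbpj and Ncor1 rose 1.19-fold and 1.14-fold in the mutant, and Flcn was 1.75-fold and Tle4 1.37-fold lower in overexpression. Of 20 genes of FGF and ERK signalling, 3 rose and 9 fell in the knockout, 3 rose and 4 fell in the mutant, and 6 rose and 11 fell in overexpression. The immediate early gene Egr1 was 5.87-fold lower in the knockout, at 2.14 CPM in both libraries, against 13.1 and 12.0 CPM in wild type. It was 1.22-fold lower in the mutant and 2.08-fold lower in overexpression. The feedback inhibitors Spry2 (1.38-fold) and Spred2 (1.31-fold) were lower in the knockout, and Fgfr2 (5.11-fold) and Dusp4 (2.19-fold) in overexpression. In the mutant Fgfr2 was 1.60-fold and Dusp4 1.35-fold lower.

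Markers of other cell types moved beside the naive factors, and their part in these results was not tested. Of 15 markers of primitive endoderm, 1 rose and 12 fell in the knockout, 6 rose and 1 fell in the mutant, and 2 rose and 8 fell in overexpression. Their median log2 changes were -2.08, 0.40 and -0.69. None of the 15 was at 0 in any group. Their summed level was 535 CPM in both knockout libraries, 751 and 939 CPM in the mutant, 545 to 582 CPM in overexpression and 619 to 643 CPM in wild type. The sum was carried by a few abundant genes of basement membrane. Col4a1 alone had 221 and 216 CPM in the knockout, against 144 and 152 CPM in wild type, a 1.47-fold difference that did not pass (adjusted p = 0.127). Gata4 had 0.652 and 0.765 CPM in the knockout, against 7.99 and 7.97 CPM in wild type, and Gata6 was 9.98-fold and Cubn 21.3-fold lower there. The 1 marker that rose in the knockout, named after its values were seen, was Foxa2 (4.96-fold). In the mutant Foxa2 was 2.21-fold lower, while Sox7 rose 1.85-fold and Lama1 1.80-fold. In overexpression Foxa2 was 5.95-fold, Lrp2 2.89-fold and Sox17 2.13-fold lower. Of the mutant libraries, replicate 2 had the higher sum and less Klf5 (190.0 CPM, against 227 CPM in replicate 1).

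Of 9 tested markers of trophoblast, on a list of 11, 5 rose and 4 fell in the knockout, and their sum was 169 to 170.1 CPM, against 143 to 146 CPM in wild type. Krt7 (2.76-fold), Gata2 (2.53-fold) and Tfap2c (1.92-fold) rose there. The 4 that fell, named after their values were seen, were Cdx2 (3.22-fold lower), Krt18 (1.57-fold), Eomes (1.35-fold) and Krt8 (1.24-fold). In the mutant 1 rose and 4 fell (sum 96.9 to 102 CPM), with Krt7 6.41-fold, Krt18 3.10-fold and Krt8 1.66-fold lower. In overexpression 1 rose and 5 fell (sum 115 to 119 CPM), with Krt7 3.50-fold, Tfap2c 2.23-fold and Krt18 1.95-fold lower. Elf5, a defining trophoblast factor, did not pass the filter on low counts and was not tested. It was at 0 in both libraries of the mutant and of wild type. Neural markers summed to 109 to 109.9 CPM in the knockout, 139 to 151 CPM in the mutant, 157 to 159 CPM in overexpression and 155 to 157 CPM in wild type. Of the 6 tested, 1 rose and 5 fell in the knockout, 0 rose and 2 fell in the mutant, and 2 rose and 2 fell in overexpression.

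Markers of fibroblasts and feeder cells summed to 8.62 to 9.37 CPM in the knockout, 5.25 to 5.55 CPM in the mutant, 7.76 to 8.38 CPM in overexpression and 4.93 to 5.29 CPM in wild type. Of the 5 tested, 3 rose in the knockout, 1 rose and 1 fell in the mutant, and 3 rose and 2 fell in overexpression. Mesendoderm markers summed to 1.40 to 2.61 CPM over all groups. Of 5 tested, 2 fell in the knockout, none passed in the mutant, and 1 rose and 1 fell in overexpression. Germ cell markers summed to 99.7 to 103 CPM in the knockout, 88.9 to 92.0 CPM in the mutant, 121 to 122 CPM in overexpression and 89.3 to 90.6 CPM in wild type. Of the 7 tested, 3 rose and 2 fell in the knockout, 1 rose and 1 fell in the mutant, and 3 rose and 4 fell in overexpression. Of 7 genes listed for the 2-cell-like state, only Eif1a, a translation initiation factor gene, passed the filter. It had 272 to 342 CPM over the 8 libraries, and this level is not read as a sign of that state. In each group it was the only listed gene with more than 3 counts in both libraries.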

How the data were processed

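Stranded total RNA was sequenced with 75 nt paired-end reads, per the labels' protocols. The submitters' processing notes name STAR 2.5.0 and the build mm10. The values are counts of reads per gene as deposited by the authors, not normalized. The annotation release and the strand setting behind them are unstated in the labels. Of 43346 genes, 42462 were matched to GENCODE M21 symbols and exon lengths by identifier without version, and 884 were not. Tests used edgeR 4.0.16 in R 4.3.3: filterByExpr (minimum count 10, total 15) kept 18055 of the 27979 genes that had any count. TMM factors scaled the libraries, and 1 robust quasi-likelihood model was fitted to all 8 libraries (4 residual degrees of freedom, biological coefficient of variation 4.17%), with Benjamini-Hochberg adjustment over all genes in each of 6 contrasts. The procedure was also run on counts simulated from its own fitted spread, with changes of at least 1.5-fold set in the knockout. That run does not cover smaller changes or libraries that are technical repeats. Alternatives were RLE factors, library size alone, TMM without loci resembling ribosomal RNA, no filter, a minimum of 1 CPM, DESeq2 1.42.0, only the 4 libraries compared, a replicate block, and each library left out. Counting error alone would be too narrow, since chi-square per degree of freedom between libraries of a group was 6.01 to 28.0. The members and lists were chosen with earlier results of these data known. Named were all members, for most lists up to 3 called genes with the largest change and at least 1 CPM, the 3 genes nearest each changed member in pattern, chromosomal neighbours, Trim71 and Mbnl1. Some values of genes on these lists are not reported here.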

Additional observations from a re-analysis of the deposited data

How the results depend on the processing

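The number of factors that passed kept within 1.5 times its value under every alternative run. It was 8 or 9 for the knockout against wild type, 8 or 9 for the mutant against wild type, 8 to 10 for overexpression against wild type, 8 or 9 for the knockout against the mutant, 5 to 7 for overexpression against the mutant and 6 to 9 for the knockout against overexpression. Signs turned for 5 changes near 0 that had not passed, and none of them passed with the sign turned. With each library left out in turn, log2 changes ranged from -0.018 to 0.069 for Klf2 in the knockout and from -0.053 to 0.035 for Klf2 in the mutant, the outer values being those without a wild-type library. They ranged from -0.0054 to 0.25 for Klf5 in the knockout against the mutant (without mutant replicate 2 and 1) and from -0.16 to 0.0064 for Prdm14 in overexpression against the mutant. For Gbx2 in the knockout against overexpression they ranged from -0.053 to 0.076. For Prdm14 and Gbx2 the outer values were those without an overexpression library. The change of Klf2 in the mutant was 0.0017 with DESeq2, and that of Gbx2 in the knockout against overexpression was -0.034 with library size alone. The cause was not tested. Esrrb passed as higher in overexpression than in the mutant with library size alone (0.11, adjusted p = 0.00574). The median of all genes lay between -0.05 and 0.07 under the alternatives.

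The labels state no pairing of the replicate numbers across groups. Differences between the 2 libraries of a group correlated at -0.03 to 0.06 between groups across genes, so no shared replicate effect was seen. That cannot show whether libraries of the same number were handled together. With the replicate block, 8, 8, 10, 8, 6 and 8 factors passed in the 6 comparisons in the order above. The calls lost were Nanog in the mutant against wild type and Zfp42 in the knockout against overexpression (0.08, adjusted p = 0.0686). With 2 libraries a group, calls of changes near 0.1 on the log2 scale were lost in some fits, also where the change stayed the same size. So were the calls of Prdm14 in overexpression against wild type (0.17) and of Klf5 in the knockout against overexpression (0.35). The fits are given beside each result. Depth was not limiting for these genes, the lowest count being 1834.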
